A study of Mus musculus with 2 samples.

Results

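The strial marginal cell-like epithelium of the embryonic mouse cochlea was followed here as 192 single-cell barcodes, 42 from mutant (Ptch1cKO) and 150 from wild-type (WT) cochleae, out of 15813 barcodes that passed filters. A barcode belonged to the set when it held at least 1 UMI (unique molecular identifier, 1 captured RNA molecule) of Esrrb, Kcne1 or Kcnq1, at least 1 UMI of Epcam, Cdh1 or Cldn7, and no UMI of Pou4f3, a hair cell transcription factor. The members were therefore chosen by measured values of those 7 genes, which are described below without being used as support. Members were compared with the other 5208 barcodes that held a UMI of Epcam, Cdh1 or Cldn7, 2808 in Ptch1cKO and 2400 in WT.

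Marginal cells form the epithelial layer of the stria vascularis that faces the endolymph. They take up potassium through the Na,K-ATPase and the cotransporter Slc12a2 at their basal side and release it into the endolymph through an apical channel made of Kcnq1, the pore subunit, and Kcne1, its accessory subunit. Esrrb, an orphan nuclear receptor, is required for their differentiation, and melanocyte-derived intermediate cells and capillaries lie directly beneath them. Ptch1 is the receptor that restrains Hedgehog signalling and is itself a transcriptional target of the pathway.

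The mutant library came from cochleae of Emx2Cre;Ptch1f/f embryos, in which a Cre recombinase driven by Emx2 recombines floxed Ptch1, and the reference library from wild-type embryos. Both were taken at E16.5 on a mixed 129/SvEv and C57BL/6N background, with 8 cochleae pooled into 1 library per genotype. No test between genotypes can be made with 1 library each, so every interval below is an exact 95% interval that covers counting error only. Ptch1 stood at 97.5 CPM (UMIs scaled to a common library total, here over the summed members) in Ptch1cKO, against 21.5 CPM in WT members. These 3′ tags do not show whether the floxed exons were lost.

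The libraries differed in depth and in the RNA of other cell types that their barcodes carried. Members held a median of 19495.5 UMIs in Ptch1cKO and 11929 in WT, against 8673.5 and 8011 in the other epithelial-marker barcodes of Ptch1cKO and WT, and a rule of 1 UMI takes deep barcodes more often. Over 5 UMIs per 10000 came from 30 mesenchymal, melanocyte, endothelial, macrophage and erythroid genes in 22 of 42 Ptch1cKO members and 130 of 150 WT members, and such barcodes are called mixed below. The libraries shared 18 cell barcodes after filters, and none of these was a member.

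The markers that made a barcode a member were not the same in the libraries. Kcnq1 alone admitted 26 of 42 members in Ptch1cKO (61.9%, 95% Clopper-Pearson interval 45.6% to 76.4%) and 32 of 150 in WT (21.3%, 15.1% to 28.8%). Esrrb, on chromosome 12 (86361117 to 86521628, plus strand, mm10, GENCODE vM21), had 15 UMIs in 5 Ptch1cKO members and 148 UMIs in 90 WT members. Kcne1, on chromosome 16 (92345982 to 92359468, minus strand), had 18 UMIs in 13 Ptch1cKO members and 94 UMIs in 59 WT members. Kcnq1, on chromosome 7 (143106362 to 143427042, plus strand), had 37 UMIs in 28 Ptch1cKO members and 65 UMIs in 55 WT members. At least 2 of the 3 genes were found together in 2 Ptch1cKO members and 40 WT members.

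Most members lay just inside the rule. Exactly 1 UMI of the 3 genes admitted 33 of 42 Ptch1cKO members and 94 of 150 WT members, and 4 members of each library rested on exactly 1 epithelial marker UMI. Of the others, 1696 of 2808 in Ptch1cKO and 1698 of 2400 in WT held at least 2 epithelial marker UMIs. Just outside it, 37 Ptch1cKO and 21 WT barcodes held an Esrrb, Kcne1 or Kcnq1 UMI without an epithelial one, and 0 Ptch1cKO and 2 WT barcodes were left out for a Pou4f3 UMI. The highest sum in a barcode was 13 UMIs in Ptch1cKO and 9 UMIs in WT.

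**Figure D1:**
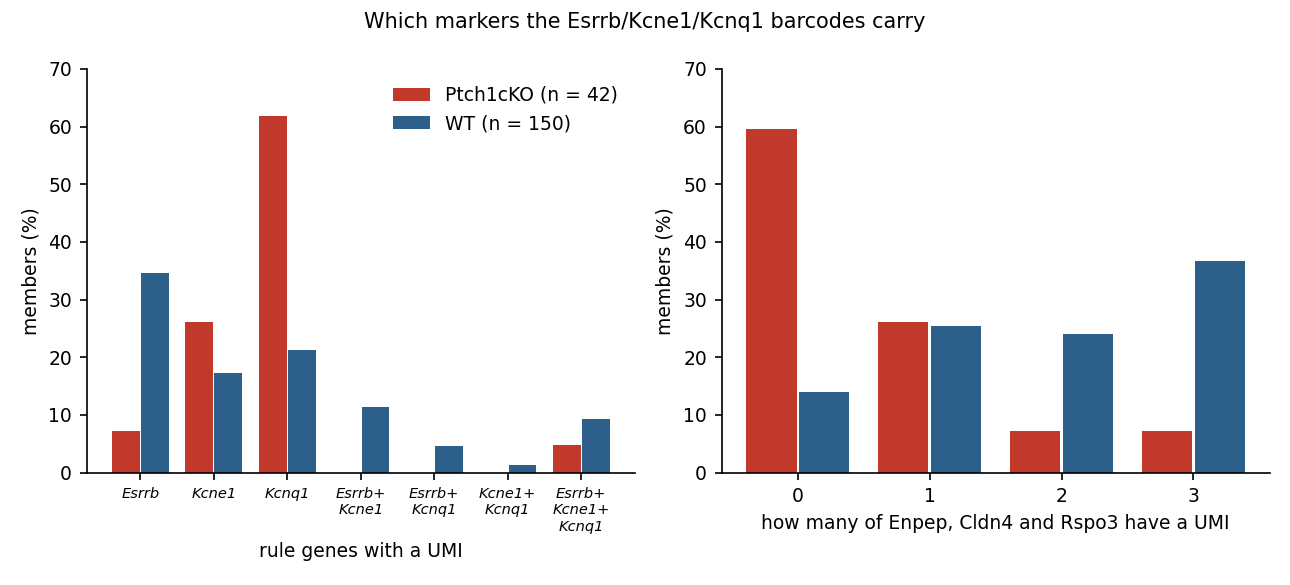
Left, percentage of members (vertical axis) by the combination of rule genes with a UMI (horizontal axis); right, percentage of members by how many of Enpep, Cldn4 and Rspo3 had a UMI. Kcnq1 alone accounts for 61.9% of the 42 Ptch1cKO members (red) and 21.3% of the 150 WT members (blue), and 25 Ptch1cKO members carry none of the 3 further markers, against 21 WT members.

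Members were a smaller share of epithelial-marker barcodes in Ptch1cKO, 42 of 2850 (1.47%, 1.06% to 1.99%), than in WT, 150 of 2550 (5.88%, 5.00% to 6.87%). With every barcode thinned at random to 2000 UMIs the share was 7 of 2404 in Ptch1cKO (0.291%, 0.117% to 0.599%), with 446 shallower barcodes left out, and 49 of 2550 in WT (1.92%, 1.42% to 2.53%), with 0 left out. These shares count the genes of the rule and are a description. Mesenchymal barcodes, which should lack these genes, gave 8 of 3235 in Ptch1cKO (0.247%) and 10 of 2402 in WT (0.416%) unthinned, at median depths of 9189 and 7255 UMIs. All 8 Ptch1cKO background barcodes carried Kcnq1.

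Each of the 3 genes was seen in fewer Ptch1cKO than WT epithelial-marker barcodes. At 2000 UMIs Esrrb was seen in 1 of 2404 Ptch1cKO and 28 of 2550 WT epithelial-marker barcodes, shares of 0.0416% (0.00105% to 0.232%) and 1.10% (0.731% to 1.58%). Kcne1 was seen in 3 Ptch1cKO and 16 WT barcodes, shares of 0.125% (0.0257% to 0.364%) and 0.627% (0.359% to 1.02%). Kcnq1 was seen in 3 Ptch1cKO and 13 WT barcodes, shares of 0.125% (0.0257% to 0.364%) and 0.510% (0.272% to 0.870%). At this depth, in 1 random draw, the intervals of Kcne1 and of Kcnq1 overlapped between libraries, and those of Esrrb did not. The counts are small and the genes are those of the rule, so this overlap is a description and does not order the 3 genes. Unthinned, Kcne1 was in 0.456% (0.243% to 0.779%) in Ptch1cKO and 2.31% (1.77% to 2.97%) in WT. Unthinned Kcnq1 was in 0.982% (0.654% to 1.42%) in Ptch1cKO and 2.20% (1.66% to 2.84%) in WT. With mixed barcodes left out the member share at 2000 UMIs was 0.406% (0.111% to 1.04%) in Ptch1cKO and 0.60% (0.124% to 1.74%) in WT. These intervals overlapped, but they rest on few barcodes in 1 draw and do not decide whether the shares differ. Unthinned, the barcodes that were not mixed held 20 members beside 1090 others in Ptch1cKO and 20 members beside 480 others in WT. The part of mixing in the difference between libraries was not tested.

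**Figure D2:**
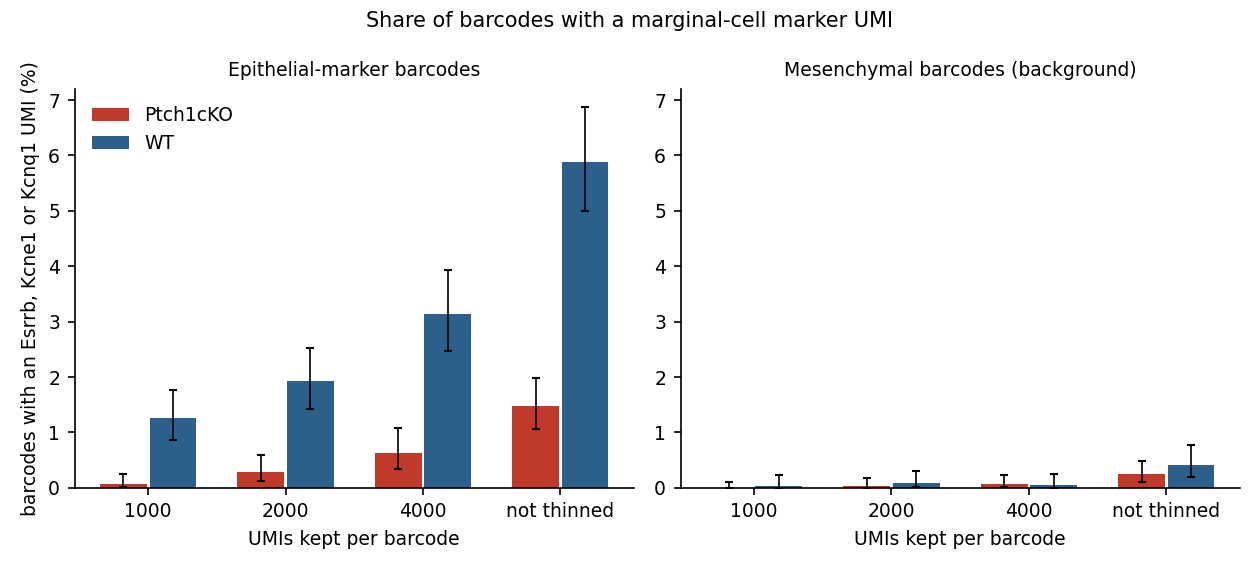
Percentage of barcodes with a UMI of Esrrb, Kcne1 or Kcnq1 (vertical axis) at 1000, 2000 and 4000 UMIs kept per barcode and unthinned (horizontal axis), with exact 95% intervals, in epithelial-marker barcodes (left) and mesenchymal barcodes (right). At 2000 UMIs the epithelial share was 0.291% in Ptch1cKO (red) and 1.92% in WT (blue), and the mesenchymal shares were 0.0311% in Ptch1cKO and 0.0833% in WT.

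Enpep, Cldn4 and Rspo3, marginal cell markers that the rule did not use, were carried by most WT members and by a minority of Ptch1cKO members. At least 1 of the 3 had a UMI in 17 of 42 Ptch1cKO members and 129 of 150 WT members, and all 3 did in 3 Ptch1cKO and 55 WT members. In the other epithelial-marker barcodes at least 1 was found in 291 of 2808 in Ptch1cKO and 575 of 2400 in WT. Thinned to 2000 UMIs, members held at least 1 in 5 of 42 in Ptch1cKO (11.9%, 3.98% to 25.6%) and 77 of 150 in WT (51.3%, 43.0% to 59.6%), against 3.05% (2.39% to 3.82%) of Ptch1cKO others and 8.17% (7.10% to 9.33%) of WT others. The 5 Ptch1cKO members came from 1 random draw, and 4.06 of 42 members and 62.0 of 2362 others were expected over draws, so whether the Ptch1cKO intervals overlap depends on the draw. Mesenchymal barcodes at the same depth held at least 1 in 4.83% (4.11% to 5.62%) in Ptch1cKO, which lies within the interval of the Ptch1cKO members, and in 5.04% (4.20% to 5.99%) in WT.

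Enpep, a glutamyl aminopeptidase, reached 39.1 CPM (29.8 to 50.5) in Ptch1cKO members and 125 CPM (111 to 141) in WT members, against 2.04 CPM in Ptch1cKO others and 9.45 CPM in WT others. The 59 Ptch1cKO UMIs sat in 5 barcodes, and the 291 WT UMIs in 86. Cldn4, a claudin of tight junctions, reached 41.1 CPM (31.5 to 52.7) in Ptch1cKO members and 195 CPM (177 to 214) in WT members, against 8.16 CPM in Ptch1cKO others and 21.3 CPM in WT others. Rspo3, a secreted enhancer of Wnt signalling, reached 22.6 CPM (15.6 to 31.5) in Ptch1cKO members and 93.1 CPM (81.1 to 106) in WT members, against 5.69 CPM in Ptch1cKO others and 15.6 CPM in WT others. On the log2 scale with 10 CPM added, members over others gave 2.03 in Ptch1cKO and 2.80 in WT for Enpep, 1.49 and 2.71 for Cldn4, and 1.05 and 2.01 for Rspo3. All 3 ratios were past 2-fold in both libraries, but that of Rspo3 depended on which members were kept. In Ptch1cKO 20 of its 34 UMIs lay in 1 barcode, and without that barcode the ratio was 0.31, below 2-fold, while Enpep and Cldn4 without their own top barcode gave 1.66 and 1.22. In WT the Rspo3 ratio was 0.25 (-0.50 to 1.04) without mixed barcodes and 0.76 (0.31 to 1.21) without barcodes holding a melanocyte UMI. Mesenchymal barcodes also held Enpep (4.30% in Ptch1cKO and 3.71% in WT) and Rspo3 (9.95% and 9.91%), whereas Cldn4 was in 0.185% of them in Ptch1cKO and 0.583% in WT.

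At least 1 of these markers of the label was in 129 of 150 WT members and all 3 were in 55, while 25 of 42 Ptch1cKO members carried none of the 3. The 3 markers came with the label and were chosen with earlier results of these data known. Enpep and Rspo3 also stand in the roof list below. The counts are therefore a description and not independent support for the label. Both Ptch1cKO barcodes with Esrrb, Kcne1 and Kcnq1 together also carried all 3 further markers. The first, with 78291 UMIs, held 7 Esrrb, 1 Kcne1, 2 Kcnq1, 19 Enpep, 11 Cldn4 and 4 Rspo3 UMIs beside 13 UMIs of the roof gene Otx2. The second, with 24996 UMIs, held 5 Esrrb, 6 Kcne1, 2 Kcnq1, 18 Enpep, 15 Cldn4 and 20 Rspo3 UMIs and 0 of Otx2. The other 3 Ptch1cKO barcodes with Esrrb held 1 UMI of it each and no Enpep. The set is called the Esrrb/Kcne1/Kcnq1 barcodes from here on.

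Barcodes admitted by Esrrb or Kcne1 and those admitted by Kcnq1 alone differed in the further markers. In Ptch1cKO the 16 barcodes with Esrrb or Kcne1 had 82.0 CPM of Enpep (61.6 to 107), against 5.89 CPM (1.91 to 13.7) in the 26 with Kcnq1 alone. Those 54 UMIs lay in 4 of the 16 barcodes, so the Ptch1cKO level is that of a few barcodes, and the Poisson intervals do not cover the spread between barcodes. In WT the 118 barcodes with Esrrb or Kcne1 had 149 CPM of Enpep (132 to 168), against 41.4 CPM (25.6 to 63.2) in the 32 with Kcnq1 alone. Rspo3 showed the same order, at 45.6 CPM with Esrrb or Kcne1 against 4.71 CPM with Kcnq1 alone in Ptch1cKO, and 112 CPM against 25.6 CPM in WT, with 20 of the 30 UMIs of the first Ptch1cKO subset in 1 barcode. Otoa, whose product otoancorin anchors the tectorial membrane and which was picked here after its values were seen, ran the other way. It had 21.3 CPM (11.6 to 35.7) with Esrrb or Kcne1 and 268 CPM (235 to 306) with Kcnq1 alone in Ptch1cKO, and 13.8 CPM (8.93 to 20.4) and 341 CPM (292 to 395) in WT. Smoc2, a matricellular protein gene, gave 161 CPM and 542 CPM in those subsets of Ptch1cKO, and 69.0 CPM and 591 CPM in those of WT. The medial list as a whole did not follow them. Of its 10 genes 4 had more CPM with Kcnq1 alone in Ptch1cKO and 6 in WT, and Otoa, Smoc2 and Epyc did so in both. Tecta had 680 CPM with Esrrb or Kcne1 and 367 CPM with Kcnq1 alone in Ptch1cKO, and 76.7 CPM and 152 CPM in WT.

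Genes of other lineages were distributed unevenly over the members. All 5 endothelial genes were detected, and their sum was 928 CPM in Ptch1cKO members (lowest barcode 0, median 0, highest 4422), against 103 CPM in WT members (0, 30.4, 4577). At least 5 endothelial UMIs were found in 7 of 42 Ptch1cKO members, 6 of them Kcnq1-only, and in 11 of 150 WT members. The 4 melanocyte genes summed to 36.5 CPM in Ptch1cKO members (0, 0, 690), where Tyrp1 and Mlana were at 0, and to 695 CPM in WT members (0, 34.1, 6721), where 76 of 150 barcodes held at least 1 such UMI. The 8 mesenchymal genes summed to 521 CPM in Ptch1cKO members (0, 112, 6837) and 1683 CPM in WT members (0, 1617, 5727), and the 6 macrophage genes to 8.62 CPM in Ptch1cKO members (0, 0, 135), where C1qa and C1qc were at 0, and 107 CPM in WT members (0, 0, 5696). The 7 erythroid genes summed to 210 CPM in Ptch1cKO members (0, 207, 713) and 27685 CPM in WT members (0, 160, 838047), where Hbb-y and Hba-x were at 0 and 6 barcodes took over 10% of their UMIs from them. Endothelial RNA thus lay in a few Ptch1cKO members, and melanocyte and mesenchymal RNA in a large part of the WT members. The others held more mesenchymal RNA than members, 2283 CPM in Ptch1cKO and 3542 CPM in WT. Sums in Ptch1cKO and WT others were 69.0 and 83.8 CPM for endothelial genes and 128 and 111 CPM for melanocyte genes. They were 106 and 63.2 CPM for macrophage genes and 20473 and 26507 CPM for erythroid genes. Mixed barcodes were 61.2% of Ptch1cKO others and 80% of WT others, against 52.4% and 86.7% of members. The part of this RNA in the differences between genotypes was not tested, except where values without such barcodes are given.

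**Figure D3:**
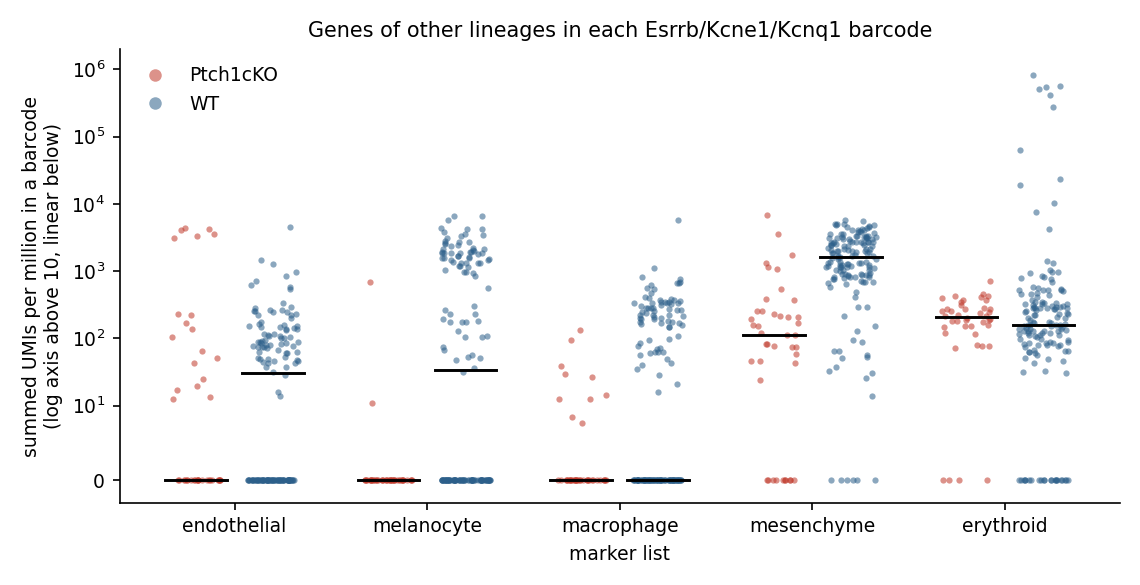
Summed CPM of each lineage's marker genes (vertical axis, logarithmic above 10 and linear below) in every Esrrb/Kcne1/Kcnq1 barcode, 1 point per barcode, for 42 Ptch1cKO (red, left) and 150 WT (blue, right) barcodes; black lines are medians. The Ptch1cKO endothelial points reach 4422 with a median of 0, and the WT melanocyte points reach 6721.

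The ion transport genes of marginal cells were partly higher in members. Over the measured genes of the list outside the rule, 1 of 7 was at least 2-fold higher in Ptch1cKO members and 3 of 8 in WT members, with medians of 0.52 and 0.44 (log2), against -0.01 in Ptch1cKO and -0.03 in WT over all genes measured. Of all genes measured 1.76% were at least 2-fold higher and 0.929% lower in Ptch1cKO members, and 0.859% higher and 0.38% lower in WT members, and these shares are the background for the counts of each list below. Atp1b2, a beta subunit of the Na,K-ATPase, had 39.1 CPM in Ptch1cKO members and 61.6 CPM in WT members, against 19.5 and 15.8 CPM in others. Atp1b1, the other beta subunit measured, was not higher in members, with ratios of -0.32 in Ptch1cKO and -0.40 in WT. Bsnd, which encodes the chloride channel subunit barttin, had 1 UMI in Ptch1cKO members and 9 UMIs in WT members, too few for a ratio between genotypes. Kcne3, another accessory subunit of Kcnq1, had 39 UMIs in 6 Ptch1cKO members and 3 UMIs in 3 WT members, and was the single 2-fold gene among 5 measured Kcnq and Kcne relatives in Ptch1cKO, while 0 of 5 passed in WT.

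Regulators and identity genes followed the members only in part. Of the measured identity genes 2 of 13 were at least 2-fold higher in Ptch1cKO members and 4 of 12 in WT members, with medians of 0.28 and 0.43. Lmx1a, a LIM homeodomain factor, had 33.8 CPM in Ptch1cKO members and 36.2 CPM in WT members, with ratios over others of 1.10 in Ptch1cKO and 1.65 in WT. Without its top barcode the Ptch1cKO ratio was 0.63. Abcg1, a sterol transporter, had ratios of 1.41 in Ptch1cKO and 1.07 in WT. Hmx2 and Hmx3, homeobox factors of the inner ear, had 5 and 10 UMIs in Ptch1cKO members and 42 and 42 UMIs in WT members, with ratios over others of 0.38 and 0.63 in Ptch1cKO and 1.32 and 1.26 in WT. Eya1 had the lowest ratio in WT, -0.80, and Gata3 the lowest in Ptch1cKO, -0.71. Of the relatives of Esrrb, Esrra gave -0.14 in Ptch1cKO and -0.05 in WT, and Esrrg -0.21 and 0.20.

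Epithelial junction genes were mostly higher in members. Of the adhesion and keratin genes 19 of 20 had ratios above 0 in Ptch1cKO and 18 of 19 in WT, and 2 and 6 of them passed 2-fold, with medians of 0.45 and 0.61. Of all genes measured 7655 of 15713 were above 0 in Ptch1cKO and 6619 of 15259 in WT. Mesenchymal genes summed to 2283 CPM in others and 521 CPM in members of Ptch1cKO, and to 3542 and 1683 CPM in WT. The part of that RNA in the ratios of epithelial genes was not tested. Krt8 and Krt18, the paired simple epithelial keratins, had 338 and 364 CPM in Ptch1cKO members and 733 and 877 CPM in WT members. Their ratios over others were 1.26 and 0.96 in Ptch1cKO and 2.03 and 2.19 in WT. Jup, a junctional plaque protein, had the highest ratio of that list in Ptch1cKO, 1.29, and 0.34 in WT. Among tight junction genes 2 of 21 passed 2-fold in Ptch1cKO, Cldn4 and F11r (1.05), and 4 of 21 in WT, where Cldn3 (1.37), Cldn8 (1.20) and Cldn9 (1.04) stood next to Cldn4. The medians were 0.40 in Ptch1cKO and 0.53 in WT. Gap junction genes had medians of -0.30 in Ptch1cKO and -0.25 in WT with 0 of 4 past 2-fold in each, and Gja1, which encodes a connexin, gave 0.32 in Ptch1cKO and -0.99 in WT.

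Genes of the cochlear roof, from which marginal cells and Reissner's membrane both arise, gave different counts in the libraries. Of the roof list 2 of 12 were 2-fold higher in Ptch1cKO members, Enpep and Rspo3, and 5 of 12 in WT members, these with Oc90, Gata2 and Meis2 (1.20). In Ptch1cKO members 1 of 12, Vmo1 (-1.42), was 2-fold lower, and in WT members 0 of 12 were. The medians were 0.22 in Ptch1cKO and 0.76 in WT. Enpep and Rspo3 are the markers already described, and the difference between the libraries could not be tested. Oc90, the otoconial protein gene, had 2044 CPM (1972 to 2117) in Ptch1cKO members and 3829 CPM (3749 to 3909) in WT members, against 1850 CPM in Ptch1cKO others and 623 CPM in WT others. Its ratio of members over others was 0.14 in Ptch1cKO and 2.60 in WT. The Ptch1cKO ratio was 1.19 with members admitted by Esrrb or Kcne1 alone, -1.24 with the others weighted to the members' depth and -1.41 without mixed barcodes, so its direction was not settled. Gata2, a zinc finger factor, had 21.9 CPM (15.1 to 30.7) in Ptch1cKO members and 152 CPM (136 to 168) in WT members, against 29.6 CPM in Ptch1cKO others and 42.2 CPM in WT others. Otx2, the roof homeobox gene, had 86 UMIs in 6 Ptch1cKO members and 15 UMIs in 9 WT members, with 55 of the 86 in 1 barcode. Vmo1 had 3 UMIs in Ptch1cKO members and 4 UMIs in WT members, although it was in 147 of 2808 Ptch1cKO others and 34 of 2400 WT others. Barcodes with Otx2 or Vmo1 that were not members numbered 245 in Ptch1cKO and 63 in WT, and had 6.10 and 33.5 CPM of Enpep, below the 39.1 CPM of Ptch1cKO and 125 CPM of WT members.

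**Figure D4:**
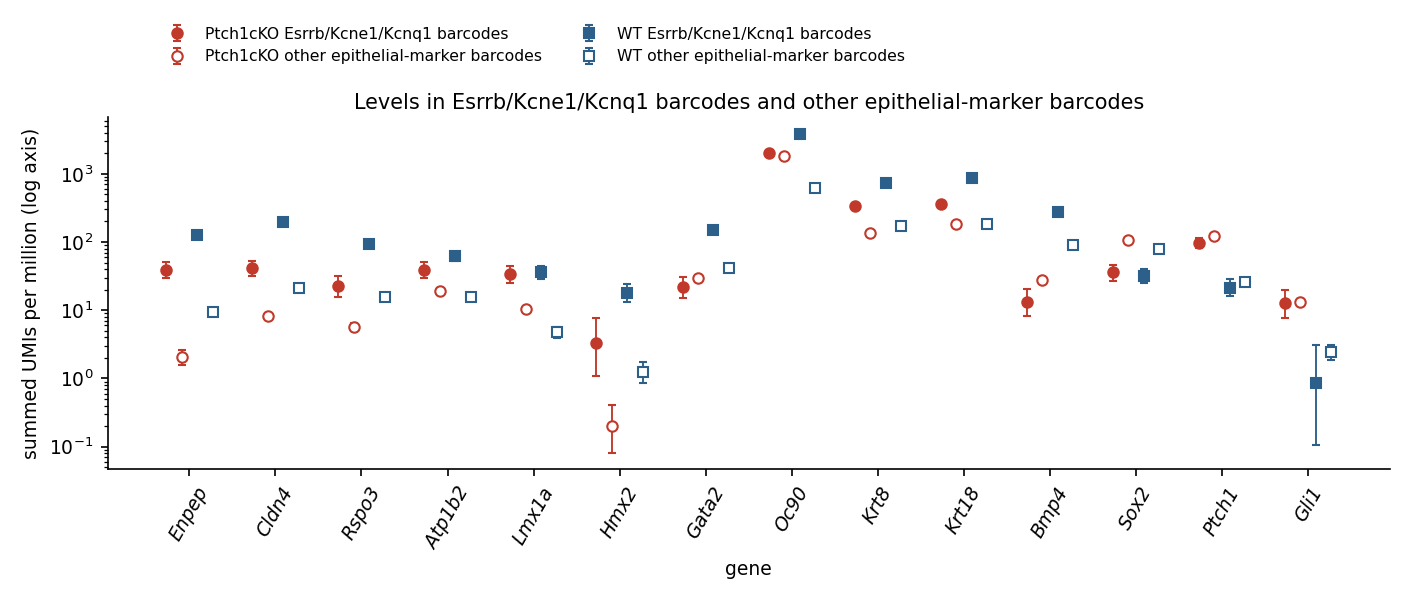
Summed CPM (vertical axis, logarithmic) of 14 genes in Esrrb/Kcne1/Kcnq1 barcodes (filled) and other epithelial-marker barcodes (open) of Ptch1cKO (red circles) and WT (blue squares), with exact 95% Poisson intervals. Enpep, Cldn4 and Rspo3 are higher in the filled than the open symbols of each library, and Bmp4 stands at 13.3 in Ptch1cKO members and 274 in WT members.

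Prosensory genes were lower in members, while genes of the medial epithelium differed between the libraries. Sox2, the prosensory factor, had 35.8 CPM in Ptch1cKO members and 31.9 CPM in WT members, against 106 CPM in Ptch1cKO others and 79.1 CPM in WT others, ratios of -1.34 and -1.09. Of 11 prosensory and supporting cell genes 4 were 2-fold lower in Ptch1cKO members and 2 in WT members, and none was 2-fold higher in either library, with medians of -0.92 and -0.42. Of the medial list 3 of 10 were 2-fold higher and 1 lower in Ptch1cKO, and 1 of 10 higher and 5 lower in WT, with medians of 0.22 and -0.88. Otoa was the 1 gene higher in both, at 1.84 in Ptch1cKO and 1.12 in WT, and Tectb the 1 lower in both, at -1.29 and -2.76. Hair cell genes gave medians of -0.11 in Ptch1cKO and -0.34 in WT. Atoh1 and Gfi1, which define hair cells, had 0 and 0 UMIs in Ptch1cKO members and 2 and 2 in WT members. The rule kept barcodes with Pou4f3 out of the members but not out of the others. Pou4f3 had 51 UMIs in 8 Ptch1cKO others and 591 UMIs in 148 WT others. Low hair cell genes in members are thus in part set by the rule and are not a finding about them.

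Across all genes 44 of 10603 tested were at least 2-fold higher in members in both libraries (0.415%) and 22 were at least 2-fold lower (0.207%). Within a library the shares were 2.57% higher and 1.30% lower in Ptch1cKO, and 1.24% higher and 0.500% lower in WT. A gene was tested with at least 20 UMIs over the members of both libraries, so genes present only in other barcodes could rarely be counted as lower. Leading the higher genes after the 7 rule genes were set aside was Ecel1, a metalloprotease gene of the endothelin-converting enzyme family, with 176 CPM in 8 of 42 Ptch1cKO members, where 139 of 266 UMIs lay in 1 barcode, and 149 CPM in 87 of 150 WT members. Its levels in others were 14.1 CPM in Ptch1cKO and 24.3 CPM in WT. Lrp2, the endocytic receptor megalin, followed with 86.2 CPM in Ptch1cKO members and 127 CPM in WT members, ratios of 2.33 and 2.06. Enpep and Cldn4 were the third and the eighth of the 12 genes named by the smaller of their ratios.

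The other leading genes are given here singly, as no list of them was fixed or tested. Atf3, a stress-induced factor, had 299 CPM in Ptch1cKO members and 555 CPM in WT members, against 73.9 CPM in Ptch1cKO others and 134 CPM in WT others. Dusp5, a phosphatase of ERK kinases, gave ratios of 1.77 in Ptch1cKO and 1.67 in WT, Csrnp1 gave 1.53 and 1.48, and Btg2, an antiproliferative gene, 1.46 and 1.68. The remaining 4 were F3, the clotting initiator tissue factor (1.68 and 2.83), Thbs1, a matrix glycoprotein gene (1.65 and 1.52), Ptgds, a prostaglandin D synthase (1.42 and 3.45), and Igf1, a growth factor (1.67 and 1.41), each given as Ptch1cKO and then WT. Without the member with most UMIs of the gene, Ptgds gave 0.77 in Ptch1cKO, below 2-fold, and the other 11 stayed past it in both libraries. Lowest were Cped1 (-1.66 in Ptch1cKO and -1.40 in WT), Kctd12, an auxiliary subunit of GABA-B receptors (-1.66 and -1.33), Tectb, the tectorial membrane gene named above, Slc1a2, a glutamate transporter (-1.25 and -1.45), Tex15 (-1.52 and -1.23), Zic5 (-1.38 and -1.22), Pdgfra, a growth factor receptor (-1.66 and -1.21), and Pou3f3, a POU domain factor (-1.23 and -1.19). Without mixed barcodes the Ptch1cKO ratio was above 0 for Cped1, Kctd12, Slc1a2, Tex15 and Pdgfra, and so was the WT ratio for Kctd12.

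Between genotypes, more genes passed 2-fold in members than in the other epithelial-marker barcodes. Of 9623 genes with at least 30 UMIs, 335 were at least 2-fold higher in Ptch1cKO members (3.48%) and 247 at least 2-fold lower (2.57%). Over the other epithelial-marker barcodes the same genes gave 30 higher (0.312%) and 62 lower (0.644%), but these sums hold many more UMIs and have less counting error. Shared between them were 16 higher genes, 4.78% of the members' and 53.3% of the others', and 50 lower genes, 20.2% and 80.6%. With median-of-ratios scaling, which shifted the members' ratios by 0.17 (log2), the split became 227 higher and 313 lower.

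Of the 3 further markers each was at least 2-fold lower in Ptch1cKO members, with ratios of -1.46 for Enpep, -2.00 for Cldn4 and -1.66 for Rspo3. In the other barcodes they were -0.69, -0.78 and -0.71. Without barcodes that held a melanocyte UMI, which left 40 Ptch1cKO and 74 WT members, the ratios in members were -0.57 (-1.22 to 0.088) for Enpep, -0.92 (-1.50 to -0.33) for Cldn4 and -0.38 (-1.10 to 0.34) for Rspo3. With members admitted by Esrrb or Kcne1 alone they were -0.79 for Enpep, -1.49 for Cldn4 and -1.13 for Rspo3. Without mixed barcodes, which left 20 members in each library, they were -0.70 (-1.59 to 0.20) for Enpep, -0.70 (-1.51 to 0.11) for Cldn4 and 0.61 (-0.49 to 1.68) for Rspo3. No ratio was past 2-fold without mixed or melanocyte barcodes, and of these 6 intervals only that of Cldn4 without melanocyte barcodes left out 0.

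Bmp4, a secreted ligand, was lower in Ptch1cKO members in every subset examined here. It had 20 UMIs (13.3 CPM, 8.10 to 20.5) in 6 Ptch1cKO members and 636 UMIs (274 CPM, 253 to 296) in 92 WT members, a ratio of -3.61. In other barcodes Bmp4 had 27.7 CPM in Ptch1cKO and 90.4 CPM in WT, a ratio of -1.41. The ratio in members was -3.22 with members admitted by Esrrb or Kcne1 alone, -4.03 without mixed barcodes and -3.73 without barcodes with a melanocyte UMI. Gata2 gave -2.34 in members and -0.40 in others, Krt8 -1.10 and -0.32, and Krt18 -1.25 and -0.02. Over the list of BMP ligands, receptors and targets 0 of 11 were 2-fold higher and 2 were 2-fold lower in Ptch1cKO members, Bmp4 and Id4 (-1.19), with a median of -0.53, against 0.09 over all genes. Between genotypes in members 2.93% of all genes measured were 2-fold higher and 2.1% lower in Ptch1cKO, the background for such list counts here and below. Between members and others the BMP medians were 0.01 in Ptch1cKO and 0.21 in WT, and Wnt genes gave -0.11 and -0.20, with 0 of 15 Wnt genes 2-fold higher and 1, Rspo3, 2-fold lower in Ptch1cKO members.

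Among the 20 genes named for the largest genotype ratios, most belong to other lineages. The 10 highest were Plxnd1 (3.26), Hist1h2ap (3.21), Cdh5 (3.06), Cd93 (3.03), Col15a1 (2.94), Kdr (2.91), Tie1 (2.82), Pecam1 (2.78), Flt1 (2.73) and Esam (2.70). Plxnd1, Cdh5, Cd93, Kdr, Tie1, Pecam1, Flt1 and Esam are known for their use in endothelial cells. Hist1h2ap is a histone gene and Col15a1 a collagen gene, whose cell of origin was not examined here. Cdh5, the endothelial cadherin, had 301 UMIs in 6 Ptch1cKO members and 35 UMIs in 17 WT members, and none in the 16 Ptch1cKO members with Esrrb or Kcne1. Without barcodes holding at least 5 endothelial UMIs its ratio was -0.61, and 261 genes were then higher and 262 lower. Hist1h2ap gave 3.03 in other barcodes as well, and 300 of its 592 UMIs in Ptch1cKO members lay in 1 barcode. The 10 lowest were Pmel (-4.54), Fabp7 (-4.50), Bmp4, Sncg (-3.51), Nefl (-3.28), Dct (-3.28), Nefm (-3.22), Stmn3 (-3.13), Ina (-3.11) and Spp1 (-3.11). Pmel and Dct, of melanocytes, were at 0.663 and 35.8 CPM in Ptch1cKO members and 238 and 434 CPM in WT members, beside 0.20 and 0.17 as ratios in others. Of the 54 Dct UMIs in Ptch1cKO members 53 lay in 1 barcode. Neuronal genes such as Nefl and Nefm were lower in other Ptch1cKO barcodes too, at -2.18 and -2.23. Over the neuronal list 7 of 7 were 2-fold lower in Ptch1cKO members and over the glial list 2 of 6, with medians of -2.46 and -0.21, beside 2.1% of all genes measured that were 2-fold lower and 2.93% that were 2-fold higher. Without mixed barcodes the neuronal median was 1.15 (-0.11 to 1.95), with Nefm at 1.22, Ina at 0.37 and Nefl at -0.04. The median thus changed sign, but its interval spanned both signs, so its direction was not settled.

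The Hedgehog feedback genes Ptch1 and Gli1 stood higher in Ptch1cKO members, much as in the other epithelial-marker barcodes. Ptch1 had 147 UMIs in 30 Ptch1cKO members and 50 UMIs in 32 WT members, a ratio of 1.77, and 124 CPM in Ptch1cKO others against 25.8 CPM in WT others, a ratio of 1.90. Gli1, a transcription factor and target of the pathway, had 19 UMIs (12.6 CPM, 7.59 to 19.7) in Ptch1cKO members and 2 UMIs (0.862 CPM, 0.104 to 3.11) in WT members, a ratio of 1.06, beside 0.91 in others. Hhip, which binds Hedgehog ligands, had 4 UMIs in Ptch1cKO members and 5 UMIs in WT members, too few to order. Emx2, whose regulation drives the Cre, had 11.9 CPM (7.08 to 18.9) in 4 Ptch1cKO members and 20.3 CPM (14.9 to 26.9) in 27 WT members, while in others it had 20.8 CPM in Ptch1cKO and 11.1 CPM in WT. Otx2 gave 2.03 in members and 1.72 in others. Its ratio in members was 1.10 without the member of each library with most Otx2 UMIs, and -0.35 (-1.51 to 0.85) without mixed barcodes, so its direction in members was not settled.

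Cell cycle genes were mostly lower in members than in others, though not under every choice of members. Of 21 G2/M genes 21 had ratios of members over others below 0 in each library, with medians of -0.44 in Ptch1cKO and -0.72 in WT. Of 22 S phase genes 22 were below 0 in Ptch1cKO and 21 in WT, with medians of -0.41 in each. Over all genes measured, ratios were above 0 for 7655 of 15713 in Ptch1cKO and 6619 of 15259 in WT. In the 9 Ptch1cKO members with at least 2 UMIs of the rule genes the G2/M median was 0.36 (-0.10 to 0.72), an interval that spans both signs. The Ptch1cKO median was -0.17 (-0.79 to 0.43) with the others weighted to the members' depth. Its direction was therefore not settled under these choices. The WT G2/M median was -0.18 (-0.69 to 0.69) without mixed barcodes. Mki67, a proliferation marker, had 159 CPM in Ptch1cKO members and 51.3 CPM in WT members, against 197 CPM in Ptch1cKO others and 129 CPM in WT others. Top2a, a topoisomerase of dividing cells, had 219 CPM in Ptch1cKO members and 96.1 CPM in WT members, against 347 CPM in Ptch1cKO others and 226 CPM in WT others. Between genotypes 8 of 21 G2/M genes were 2-fold higher in Ptch1cKO members, with a median of 0.88, beside 0 of 21 and 0.51 in others. That median was 0.06 without barcodes holding at least 5 endothelial UMIs, 0.11 with members admitted by Esrrb or Kcne1 alone, and 0.08 without mixed barcodes. The S phase median in members was 0.35, with 2 of 22 genes 2-fold higher, and 0.09 without the endothelial barcodes.

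**Figure D5:**
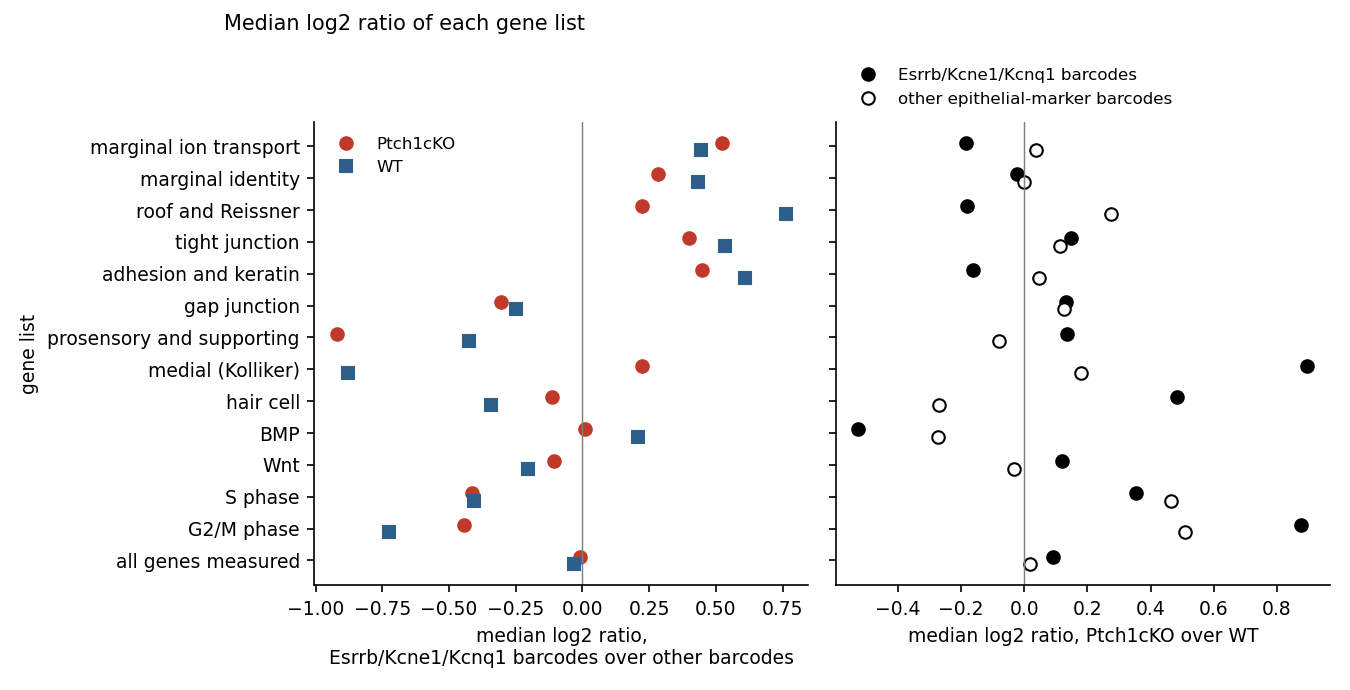
Median log2 ratio (horizontal axes, 10 CPM added) of each gene list (rows). Left, Esrrb/Kcne1/Kcnq1 barcodes over other epithelial-marker barcodes in Ptch1cKO (red circles) and WT (blue squares); right, Ptch1cKO over WT in Esrrb/Kcne1/Kcnq1 barcodes (filled) and other barcodes (open). The G2/M list stands at 0.88 (filled) and 0.51 (open), and the prosensory list at -0.92 and -0.42 on the left.

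The lists with other roles gave no common direction between genotypes. Ptch1cKO over WT in members had medians of -0.18 for marginal ion transport, -0.02 for identity genes, -0.18 for roof genes, 0.15 for tight junction genes, -0.16 for adhesion and keratin genes, 0.13 for gap junction genes and 0.13 for prosensory genes. The medial list stood higher, at 0.90 with 3 of 10 genes 2-fold higher, among them Tectb (2.37) and Tecta (2.32), 2 proteins of the tectorial membrane. Endolymph acid-base genes had medians of 0.05 in Ptch1cKO and 0.21 in WT for members over others, with Atp6v1b1, a proton pump subunit, highest in Ptch1cKO at 1.08, and Slc26a4, the exchanger pendrin, highest in WT at 0.71.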

How the data were processed

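Whole-number UMI counts for 32285 genes in each of 12326 Ptch1cKO and 6500 WT barcodes were deposited, without normalization (100135532 and 61130806 UMIs in all). The submitters' processing notes name Cell Ranger 6.0.0 and mm10; the file headers give version 6.0.0 for WT but 5.0.1 for Ptch1cKO, and the labels also name different kit versions. The shallowest deposited barcode has 500 UMIs in Ptch1cKO and 3352 in WT. These differences and genotype cannot be told apart.

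Filters left 9373 Ptch1cKO and 6440 WT barcodes (1000 UMIs or more, 500 genes or more, mitochondrial share up to 10%). Mesenchymal barcodes had no epithelial marker UMI and at least 5 mesenchymal UMIs. Counts were summed per library and set and scaled to CPM. Ratios are log2 of CPM plus 10 (members over others, Ptch1cKO over WT), and 2-fold marks a call. List medians use genes with at least 10 UMIs, without the 7 rule genes. Shares carry Clopper-Pearson and sums Poisson 95% intervals. The members and the 26 gene lists were chosen with earlier results of these data known. Named genes were the 12 highest and 8 lowest in members in both libraries, the 10 highest and 10 lowest between genotypes, list examples, the given markers, and Ptch1, Gli1, Hhip, Emx2 and Otx2. Scrublet called 0 doublets in each library and had not worked, so an alternative left out the top-scored 703 Ptch1cKO and 332 WT barcodes, which held 4 and 2 members. Some ion transport genes count in their list but are not reported here singly. The ratio step was tested on simulated data. Python 3.11.15, numpy 2.4.6, scipy 1.17.1, pandas 2.3.3 and scanpy 1.11.5 were used.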

Additional observations from a re-analysis of the deposited data

Results flagged for a closer look

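Dct and Pmel, pigment genes of melanocytes, had opposite ratios of Esrrb/Kcne1/Kcnq1 barcodes over other epithelial-marker barcodes in the libraries. The log2 ratio of Dct was -1.07 in Ptch1cKO and 2.38 in WT, and that of Pmel was -2.18 in Ptch1cKO and 2.56 in WT. Dct was found in 2 of 42 Ptch1cKO members and 68 of 150 WT members, and in 36 of 2808 Ptch1cKO others and 165 of 2400 WT others. Pmel was found in 1 Ptch1cKO and 71 WT members, and in 64 Ptch1cKO and 155 WT others. By share of barcodes Dct was not lower in Ptch1cKO members, at 4.76% (0.582% to 16.2%) against 1.28% (0.900% to 1.77%) of others. In Ptch1cKO 53 of the 54 member UMIs of Dct lay in 1 barcode, and 1 other barcode held 402 of 2988. With 1 library per genotype the difference was not tested, and the part of mixed barcodes in it was not tested.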

How the results depend on the processing

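No paired analysis was possible because each genotype has 1 library, and for the same reason no replicate could be left out. Of the alternatives, 6 were chosen after seeing the data: equal weight per barcode, leaving out the deepest member, the member with most UMIs of a gene, endothelial barcodes or melanocyte barcodes, and a minimum on observed or expected UMIs. The neuronal list was added to all alternatives at that stage. Depth limits the member share: it was 0.0702% in Ptch1cKO and 1.25% in WT at 1000 UMIs, 0.629% and 3.14% at 4000, and 1.47% and 5.88% unthinned. It was 0.0416% in Ptch1cKO and 0.353% in WT with at least 2 marker UMIs, 2.60% in WT with at least 2 epithelial UMIs, and 0.60% in WT without mixed barcodes. The share stayed lower in Ptch1cKO under each of these. Unless stated, the cause of a change below was not tested.

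The median ratio of Enpep, Cldn4 and Rspo3 in Ptch1cKO was 2.17 without Kcnq1 in the rule. In WT it was 3.32 with at least 2 marker UMIs, 2.46 with at least 2 epithelial UMIs, 1.59 without mixed barcodes and 1.71 without melanocyte barcodes. Genes 2-fold higher and lower in members numbered 131 and 66 with 1 CPM added, 11 and 3 with 50 CPM added, and 23 and 6 without mixed barcodes. Higher genes numbered 76 without Kcnq1. Lower genes numbered 6 with at least 2 epithelial UMIs, 8 with others weighted to the members' depth, 9 with equal weights and 34 without endothelial barcodes. Genes 2-fold higher and lower in Ptch1cKO members numbered 745 and 476 with 1 CPM added, 51 and 55 with 50 CPM added, 544 and 376 with at least 2 marker UMIs, and 120 and 135 without mixed barcodes.

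Genotype ratios turned negative without Kcnq1 for Plxnd1 (-0.14), Cdh5 (-1.18), Cd93 (-0.58), Col15a1 (-0.27), Kdr (-0.83), Tie1 (-0.41), Pecam1 (-0.43), Flt1 (-1.25) and Esam (-0.83). Without endothelial barcodes they did so for Plxnd1 (-0.045), Cdh5 (-0.61), Cd93 (-0.33), Kdr (-0.35), Tie1 (-0.19), Pecam1 (-0.055), Flt1 (-0.83) and Esam (-0.31). Without mixed barcodes they changed sign for Rspo3 (0.61), Otx2 (-0.35), Cd93 (-0.037), Col15a1 (-0.23), Kdr (-0.24), Flt1 (-1.36), Esam (-0.064), Nefm (1.22), Ina (0.37) and the neuronal median (1.15). In the same setting Ptch1cKO members over others turned positive for Cped1 (0.0037), Kctd12 (1.28), Slc1a2 (0.24), Tex15 (0.20) and Pdgfra (0.46), and WT members over others for Kctd12 (0.36).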
